A study of Mus musculus with 18 samples.

Results

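The growth hormone, STAT5 and Bcl6 axis is followed here as 10 genes in 3 mouse tissues. They are the receptor gene Ghr, the transcription factor genes Stat5a and Stat5b, the feedback inhibitor genes Cish, Socs1, Socs2 and Socs3, the repressor gene Bcl6, and the output genes Igf1 and Igfals. They were taken by symbol from the 22298 gene identifiers of the deposited tables, and all 10 were found. The list was chosen by name with genotype differences of these libraries already known, those of Cish and Bcl6 in liver above all, so the liver differences of its members are given as a description, with no p-value. For KO against WT in fat, p-values of the members are printed as a record of the tests and are not independent support.

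The libraries are RNA-seq of liver, inguinal white adipose tissue (iWAT) and epididymal white adipose tissue (eWAT) from C57BL/6 mice aged 12 weeks. KO denotes the genotype Bckdhaf/f;RIP-Cre and WT denotes Bckdhaf/f, so both genotypes carry the floxed Bckdha allele and only KO carries Cre. Each tissue has 3 KO and 3 WT libraries. Bckdha encodes a subunit of the enzyme complex that commits branched-chain amino acids to oxidation, and RIP-Cre is the usual name of a transgene in which the promoter of a rat insulin gene drives Cre in pancreatic beta cells, with activity in some neurons too. No library analysed here carries RIP-Cre without the floxed allele, so an effect of the transgene and one of Bckdha deletion in Cre-expressing cells cannot be told apart. Sex, feeding state and hour of tissue collection are not given in the sources used here, nor whether replicate libraries come from separate mice, so the p-values measure the spread between libraries, which may be technical in part. In whole tissue, fewer cells of a type and less RNA per cell cannot be told apart.

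Growth hormone binds its receptor, which activates the kinase JAK2 and, through it, STAT5A and STAT5B. In mouse liver the STAT5 proteins turn on Igf1, Igfals, Cish and Socs2. CIS and the SOCS proteins feed back on receptor signalling, and Bcl6 encodes a transcriptional repressor whose hepatic expression growth hormone lowers and whose binding sites overlap those of STAT5.

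The start regions of Cish and Bcl6 are shown because these 2 genes carry the largest genotype differences of the set. They were searched for the STAT motif TTCNNNGAA, a palindrome that reads alike on both strands and shares letters with the motif bound by BCL6. The RefSeq start-site windows (build GRCm38.p6) run from 250 bases before a transcript start to 50 bases after it, and the first 280 bases of each window are printed. Capitals mark matches.

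Cish, chr9:107296409-107296688, plus strand: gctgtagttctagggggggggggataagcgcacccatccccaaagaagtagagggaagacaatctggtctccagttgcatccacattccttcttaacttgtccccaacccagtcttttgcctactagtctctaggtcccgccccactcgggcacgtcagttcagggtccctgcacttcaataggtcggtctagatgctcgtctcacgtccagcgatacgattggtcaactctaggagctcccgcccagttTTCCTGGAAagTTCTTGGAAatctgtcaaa
Bcl6 start 1, chr16:23988823-23989102, minus strand: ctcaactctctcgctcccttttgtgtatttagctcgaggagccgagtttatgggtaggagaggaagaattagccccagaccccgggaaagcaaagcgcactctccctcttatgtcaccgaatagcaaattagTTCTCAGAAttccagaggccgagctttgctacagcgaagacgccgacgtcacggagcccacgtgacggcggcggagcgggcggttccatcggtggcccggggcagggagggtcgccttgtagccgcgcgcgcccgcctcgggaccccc
Bcl6 start 2, chr16:23981254-23981533, minus strand: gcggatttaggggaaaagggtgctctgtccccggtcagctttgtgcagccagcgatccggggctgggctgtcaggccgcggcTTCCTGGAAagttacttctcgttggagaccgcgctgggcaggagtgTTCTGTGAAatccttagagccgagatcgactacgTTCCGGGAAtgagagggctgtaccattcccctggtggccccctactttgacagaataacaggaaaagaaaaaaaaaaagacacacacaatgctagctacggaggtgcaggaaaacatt

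The Cish window held 2 matches, TTCCTGGAA and TTCTTGGAA, which begin at base 1 and base 12 counted from 1 at the transcript start. The window of Bcl6 start 1 held 1 match, TTCTCAGAA, and that of Bcl6 start 2 held 3, TTCCTGGAA, TTCTGTGAA and TTCCGGGAA. Of 32851 windows of the same length over all genes, 8.3% held at least 1 match and 0.457% held at least 2. Socs3 had 1 match and Igfals had 1 in each of 2 of its windows. The windows of Ghr, Stat5a, Stat5b, Socs1 and Igf1 held none of these letters, and 9 members had a window. A match is a description of the letters and shows neither binding nor a site in use.

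**Figure D1:**
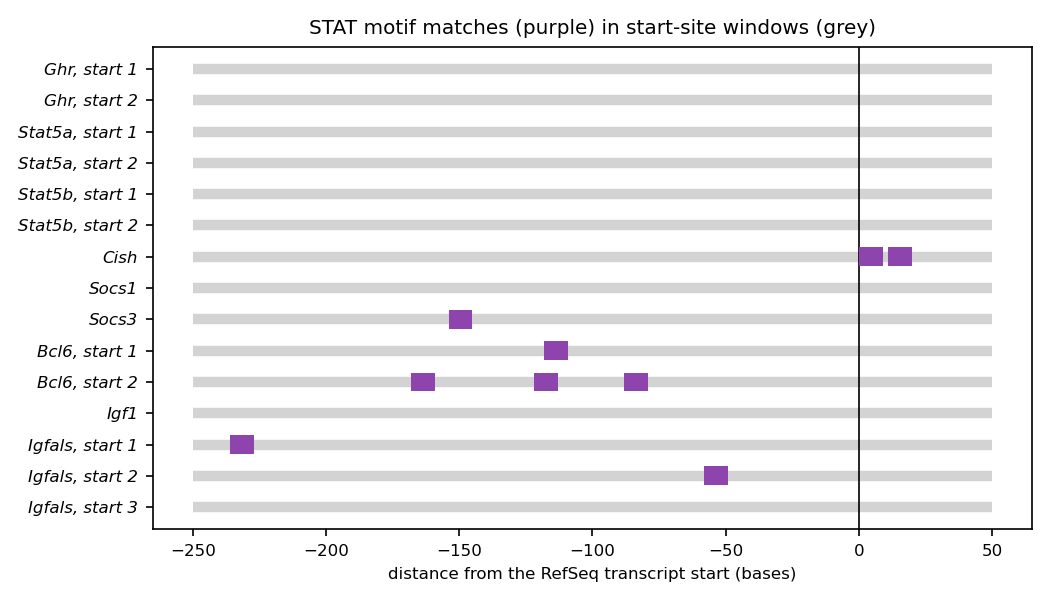
Matches to the STAT motif (purple) in the RefSeq start-site windows (grey) of 9 members, with the distance from the transcript start in bases on the x axis and 1 row per annotated start. Matches stand in 6 of the 15 windows, with 2 at the Cish start and 3 before Bcl6 start 2.

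Total expected counts ran from 16796147 to 28039742 per library. Values are CPM, that is counts scaled to a common total, from TMM-scaled libraries within the 6 libraries of a tissue, unless a sentence says otherwise. Bckdha had 241, 203 and 179 CPM in KO livers, against 194, 232 and 232 CPM in WT livers, and the groups overlapped in both fat depots too. These tissues are not where RIP-Cre is known to act, so this does not check the genotype labels. The sum of 7 hepatocyte markers, scaled over all 18 libraries, was 182307 to 208466 CPM in KO livers and 198959 to 254052 CPM in WT livers, and at most 497 CPM in fat. The adipocyte hormone gene Adipoq marked both fat depots except WT eWAT replicate 2, which had 17.1 CPM against 961 to 3883 CPM in the other eWAT libraries. That library held 43941 CPM of the epididymal gene Gpx5, so the eWAT differences are given with and without it. No label names a batch. Gpx5 also had 0, 5, 3 and 0 expected counts in KO liver replicate 2, KO iWAT replicate 1, WT iWAT replicate 2 and WT eWAT replicate 3. WT eWAT replicate 2 had 736546 expected counts of it, and each remaining library had 262 to 631, so the libraries fall into sets by this gene.

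In liver, Cish was lower and Bcl6 higher in every KO library than in any WT library. Cish averaged 3.82 ± 0.983 CPM in KO livers and 23.5 ± 3.71 CPM in WT livers, while Bcl6 averaged 30.6 ± 6.36 CPM in KO livers and 3.05 ± 1.31 CPM in WT livers (SD, n = 3 each). In CPM, Socs2, Socs3, Igf1 and Igfals were also lower in every KO library than in any WT library, by less. Ghr, Stat5a and Stat5b overlapped between genotypes. On the authors' FPKM the groups of Socs2 and Igfals overlapped too. Groups did not overlap in CPM for 6 of the 9 members past the count filter, beside 13% of all genes tested. Bcl6 was the 1 higher, beside 5.98% of genes, and 5 were lower, beside 6.97%, and since the members were chosen with this contrast known, nothing is read from either count.

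**Figure D2:**
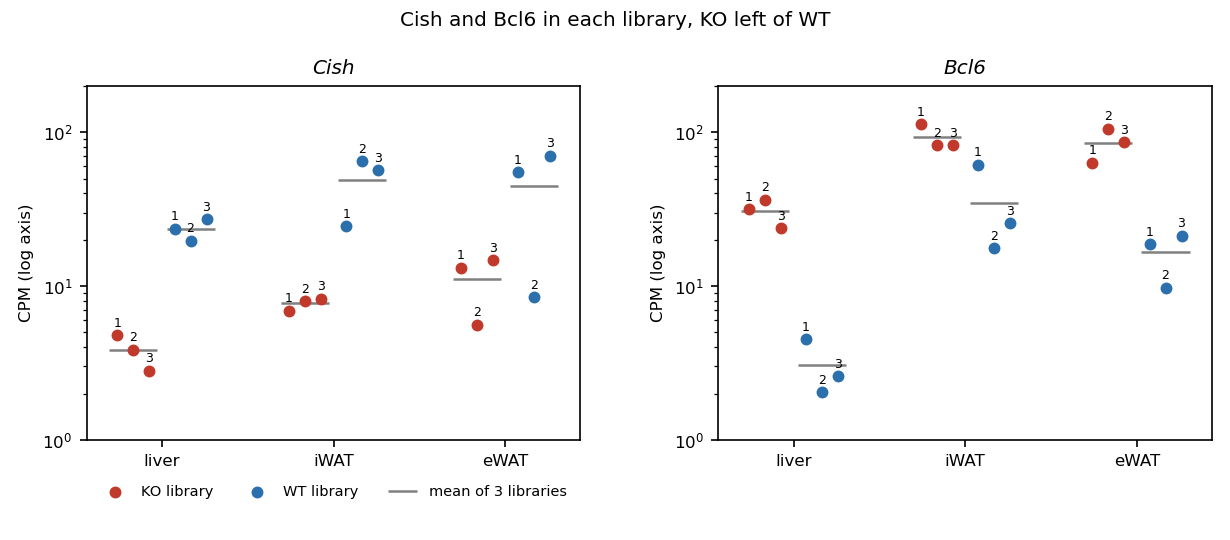
Cish (left panel) and Bcl6 (right panel) in CPM on a log axis, by tissue, with KO libraries (red) left of WT libraries (blue), the replicate number above each point and a grey line at the mean of 3 libraries. In liver the KO points of Cish lie between 2.82 and 4.78 CPM, below every WT point, and those of Bcl6 between 23.8 and 36.4 CPM, above every WT point.

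Ghr, the growth hormone receptor gene (chr15:3317760-3583492), had 155, 239 and 226 CPM in KO livers, against 175, 214 and 162 CPM in WT livers. The groups overlapped, and the log2 fold change of KO over WT was 0.17 ± 0.21 (SE).

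Stat5b (chr11:100780731-100850724), the main growth hormone responsive STAT gene of mouse liver, had 41.6, 35.5 and 44.5 CPM in KO livers, against 61.2, 38.1 and 57.6 CPM in WT livers. WT replicate 2 fell among the KO libraries, and the log2 fold change was -0.37 ± 0.21. Stat5a (chr11:100859351-100885169), its neighbour and close relative, had 12.4, 9.48 and 10.2 CPM in KO livers, against 14.3, 9.70 and 11.9 CPM in WT livers, which overlapped (-0.17 ± 0.21). Reads common to both genes could be split between them by the authors' counting, and the end of Stat5a overlaps Stat3 on the other strand. The sources used here do not say whether the libraries mark strand.

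Cish (chr9:107296026-107302784) encodes CIS, an inhibitor that competes for docking sites on cytokine receptors. It had 4.78, 3.85 and 2.82 CPM in KO livers, against 23.6, 19.7 and 27.1 CPM in WT livers, from 56 to 100 expected counts in KO and 339 to 577 in WT. The highest KO value was below the lowest WT value, and the log2 fold change was -2.62 ± 0.24, a WT level 6.15 times the KO level. Antisense and pseudogene annotations overlap Cish and have no row of their own in the tables.

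Socs2 (chr10:95385362-95417180) encodes the inhibitor whose loss in mice gives overgrowth. It had 1.87, 1.69 and 1.46 CPM in KO livers, against 8.22, 2.96 and 5.07 CPM in WT livers. The groups did not overlap in CPM, WT replicate 2 lay closest to KO, and the log2 fold change was -1.70 ± 0.37. On the authors' FPKM the groups of Socs2 overlapped through WT replicate 2. Socs3 (chr11:117966079-117970047), better known as the inhibitor of the STAT3 branch, had 5.92, 4.16 and 6.90 CPM in KO livers, against 9.77, 11.7 and 9.63 CPM in WT livers. All KO values were below all WT values (-0.88 ± 0.23). Socs1 (chr16:10782240-10785536), an inhibitor of JAK kinases best known from interferon signalling, had only 4 to 9 expected counts in any liver library and did not pass the count filter. Its level was 0.265 ± 0.0756 CPM in KO livers and 0.263 ± 0.0412 CPM in WT livers (SD, n = 3 each), so a difference was not detectable at this depth.

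Bcl6 (chr16:23965052-23988852) had 31.7, 36.4 and 23.8 CPM in KO livers, against 4.52, 2.03 and 2.58 CPM in WT livers. The lowest KO value stood above the highest WT value, the log2 fold change was 3.31 ± 0.32, and the KO mean was 10.1 times the WT mean. The WT values rest on 35 to 105 expected counts and the KO values on 473 to 945.

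Igf1 (chr10:87858265-87937042), the main circulating growth factor made by liver, had 129, 168 and 131 CPM in KO livers, against 185, 362 and 177 CPM in WT livers. The groups did not overlap, though KO replicate 2 lay near the lower WT values, and the log2 fold change was -0.76 ± 0.28. WT replicate 2 was the highest library, and without it the log2 fold change was -0.34. Igfals (chr17:24865997-24882010) encodes the acid-labile subunit that holds IGF1 in its large serum complex. It had 129, 83.1 and 56.6 CPM in KO livers, against 156, 135 and 151 CPM in WT livers. The groups did not overlap in CPM, and the log2 fold change was -0.72 ± 0.27. On the authors' FPKM they overlapped, with a KO maximum of 51.4 FPKM and a WT minimum of 43.65 FPKM.

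Several marker sums differed between single libraries or groups in liver, scaled over all 18 libraries. Neutrophil markers (8 genes) summed to 3.14 to 11.02 CPM in KO livers and to 63.0, 65.2 and 2.80 CPM in WT livers. Endothelial markers (8 genes) summed to 365 to 482 CPM in KO livers and 139 to 465 CPM in WT livers. Erythroid markers (6 genes) summed to 1009 to 2185 CPM in KO livers, below the 2525 to 3642 CPM of WT livers. None of these genes was at 0 in all libraries of a group, and the part of blood or vessel cells in the members' values was not tested. The log2 fold changes of Cish and Bcl6 were -2.61 and 3.72 without WT liver replicate 1, -2.73 and 3.10 without WT liver replicate 2, and -2.50 and 3.21 without WT liver replicate 3.

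**Figure D3:**
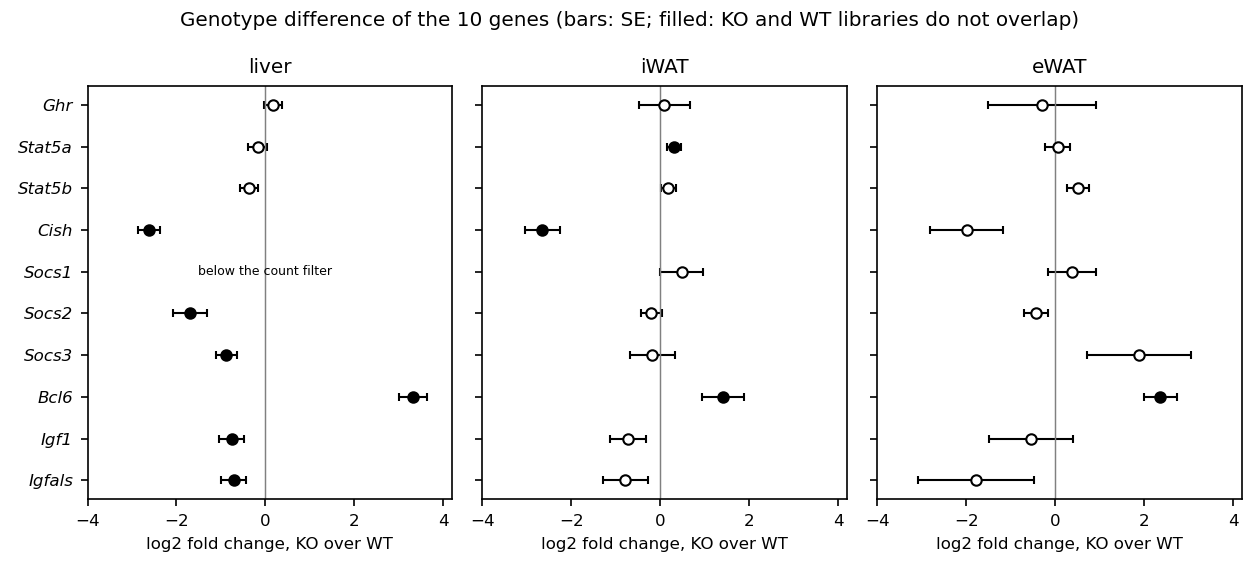
Log2 fold change of KO over WT for the 10 genes in liver, iWAT and eWAT, with standard errors as bars, ordered by role from receptor to outputs; filled points mark genes whose KO and WT libraries do not overlap. Cish lies left of 0 and Bcl6 right of 0 in all 3 panels, between -2.65 and -1.99 for Cish and between 1.41 and 3.31 for Bcl6.

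In iWAT, Cish was lower and Bcl6 higher in every KO library than in any WT library, but no gene passed the test across all genes. Cish had 6.92, 8.003 and 8.30 CPM in KO iWAT, against 24.4, 64.8 and 56.7 CPM in WT iWAT. KO libraries lay close together and WT replicate 1 was the lowest of WT, and the log2 fold change was -2.65 ± 0.39. Bcl6 had 113, 82.6 and 82.4 CPM in KO iWAT, against 61.4, 17.7 and 25.6 CPM in WT iWAT. WT replicate 1 came nearest to KO, and the log2 fold change was 1.41 ± 0.48. In edgeR's quasi-likelihood test, 0 of 10 members passed the adjusted threshold, beside 0% of 14226 genes, and the adjusted p of each member was 0.9998. At an unadjusted p under 0.05 stood 2 members (Cish and Bcl6) and 593 genes in all, and DESeq2 called 67 genes (0.471%), among them Cish.

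The sets that Gpx5 defines split iWAT across genotype. In the set with Gpx5 reads, Cish had 8.003 and 8.30 CPM in KO against 24.4 and 56.7 CPM in WT, and Bcl6 had 82.6 and 82.4 CPM in KO against 61.4 and 25.6 CPM in WT. In the set without, the single KO library had 6.92 CPM of Cish and 113 CPM of Bcl6, against 64.8 and 17.7 CPM in the single WT library. Both genes differed in the same direction within each set, but the set without rests on a single library per genotype. The part of these sets in the members' values was not tested.

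B cell markers (8 genes, such as Cd79a) summed to 363, 1284 and 1182 CPM in KO iWAT and to 1369, 6.00 and 578 CPM in WT iWAT, scaled over all 18 libraries. Bcl6 is itself expressed in germinal centre B cells. WT replicate 1 was highest of the WT libraries both in these markers and in Bcl6, and WT replicate 2 lowest in both, while KO replicate 1 was lowest of the KO libraries in the markers and highest in Bcl6. Macrophage markers (8 genes) summed to 618 to 811 CPM in KO iWAT, below the 903 to 1485 CPM of WT iWAT, and stellate cell and fibroblast markers (8 genes) to 838 to 1177 CPM in KO iWAT, below the 1387 to 3096 CPM of WT iWAT. None of these genes was at 0 throughout a group, and the part of these cells in the members' values was not tested.

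The other members of the set overlapped between genotypes in iWAT except Stat5a, and 3 of 10 did not overlap in all (Bcl6 and Stat5a higher, Cish lower), beside 9.38% of all genes tested, 4.34% higher and 5.03% lower. Stat5a had 69.7, 60.2 and 64.8 CPM in KO iWAT, against 47.4, 60.1 and 49.0 CPM in WT iWAT, where the lowest KO and the highest WT value nearly met (0.32 ± 0.16). Igf1 had 111, 66.6 and 43.1 CPM in KO iWAT, against 83.7, 157 and 124 CPM in WT iWAT. Igfals had 24.4, 10.4 and 14.9 CPM in KO iWAT, against 12.4, 38.3 and 35.1 CPM in WT iWAT. For both genes KO replicate 1 lay among the WT libraries and WT replicate 1 among the KO libraries (-0.73 ± 0.40 for Igf1 and -0.79 ± 0.51 for Igfals). Ghr had 799, 339 and 275 CPM in KO iWAT, against 205, 687 and 436 CPM in WT iWAT, with KO replicate 1 the highest and WT replicate 1 the lowest of the 6 libraries, and its log2 fold change was 0.09 ± 0.58. Adipoq, measured beside them, had 3270, 1166 and 1175 CPM in KO iWAT and 728, 2423 and 1694 CPM in WT iWAT. Stat5b (0.18 ± 0.17), Socs1 (0.48 ± 0.49), Socs2 (-0.20 ± 0.24) and Socs3 (-0.18 ± 0.51) had log2 fold changes within about their standard errors.

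In eWAT, Bcl6 was higher in every KO library than in any WT library, and again no gene passed the test. Bcl6 had 63.4, 106 and 86.4 CPM in KO eWAT, against 18.7, 9.78 and 21.2 CPM in WT eWAT. The groups were well separated, and the log2 fold change was 2.36 ± 0.37. Cish had 13.2, 5.615 and 14.7 CPM in KO eWAT, against 54.9, 8.47 and 70.4 CPM in WT eWAT. The groups overlapped only through WT replicate 2, the library with little Adipoq, and the log2 fold change was -1.99 ± 0.81. Without that library it was -2.45 for Cish and 2.11 for Bcl6, each with an adjusted p of 0.235 in edgeR. With all 6 libraries, 0 of 10 members passed edgeR's quasi-likelihood test, beside 0% of 14657 genes, and both genes had an adjusted p of 0.706. At an unadjusted p under 0.05 stood 1 member (Bcl6) and 843 genes in all, and DESeq2 called 126 genes (0.86%), among them Bcl6. Of the 10 members Bcl6 alone did not overlap in CPM, beside 15% of all genes tested. With WT replicate 2 left out and the other 5 libraries rescaled, 7 members did not overlap (Bcl6 and Stat5b higher, Cish, Ghr, Socs2, Igf1 and Igfals lower), beside 38.8% of all genes tested.

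Other libraries of eWAT also held transcripts of neighbouring tissue, scaled over all 18 libraries. Epididymal markers (8 genes) summed to 1095, 17.5 and 1258 CPM in KO eWAT and to 36.9, 48026 and 1.31 CPM in WT eWAT. Of the epididymal gene Crisp1 there were 1080, 0.775 and 1234 CPM in KO eWAT, against 1.49, 767 and 1.1502 CPM in WT eWAT. Smooth muscle markers (8 genes) summed to 2851, 259 and 2732 CPM in KO eWAT and to 332, 1299 and 243 CPM in WT eWAT, so KO replicates 1 and 3 were highest in these and WT replicate 2 next. Skeletal muscle markers (8 genes) summed to 15.7 to 41.3 CPM in KO eWAT, above the 2.28 to 14.6 CPM of WT eWAT. Among the 3 libraries low in epididymal markers, KO replicate 2 had 5.615 CPM of Cish and 106 CPM of Bcl6, against 54.9 and 70.4 CPM of Cish and 18.7 and 21.2 CPM of Bcl6 in WT replicates 1 and 3. The part of these cells in the members' values, Cish and Bcl6 included, was not tested.

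WT eWAT replicate 2 stood far from the other WT libraries in Ghr, Igf1 and Igfals. Ghr had 461, 1108 and 740 CPM in KO eWAT, against 1378, 27.7 and 1420.2 CPM in WT eWAT. Igf1 had 101, 126 and 94.2 CPM in KO eWAT, against 238, 12.7 and 218 CPM in WT eWAT. Igfals had 6.19, 11.01 and 11.7 CPM in KO eWAT, against 51.7, 0.537 and 46.5 CPM in WT eWAT. In each of these 3 genes WT replicates 1 and 3 lay above all KO libraries and WT replicate 2 far below them. Socs3 had 8.17, 64.1 and 10.9 CPM in KO eWAT, against 15.4, 1.19 and 5.92 CPM in WT eWAT, so KO replicate 2 alone was high (1.88 ± 1.17). Stat5b had 71.0, 88.6 and 95.3 CPM in KO eWAT, against 75.1, 47.8 and 55.5 CPM in WT eWAT, with WT replicate 1 among the KO libraries (0.51 ± 0.24). On the authors' FPKM its groups did not overlap, with a KO minimum of 17.6 FPKM and a WT maximum of 13.6 FPKM. Socs2 had 8.33, 11.9 and 8.89 CPM in KO eWAT, against 14.0, 13.7 and 11.7 CPM in WT eWAT, where WT replicate 3 fell just below the highest KO value (-0.43 ± 0.28). Stat5a (0.05 ± 0.28) and Socs1 (0.38 ± 0.54) overlapped. Without WT replicate 2 the log2 fold change was -0.85 for Ghr, -1.06 for Igf1 and -2.33 for Igfals. It was 1.40 for Socs3, 0.41 for Stat5b, -0.37 for Socs2, 0.16 for Socs1 and, with its sign changed, -0.12 for Stat5a, and none of these passed in edgeR.

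**Figure D4:**
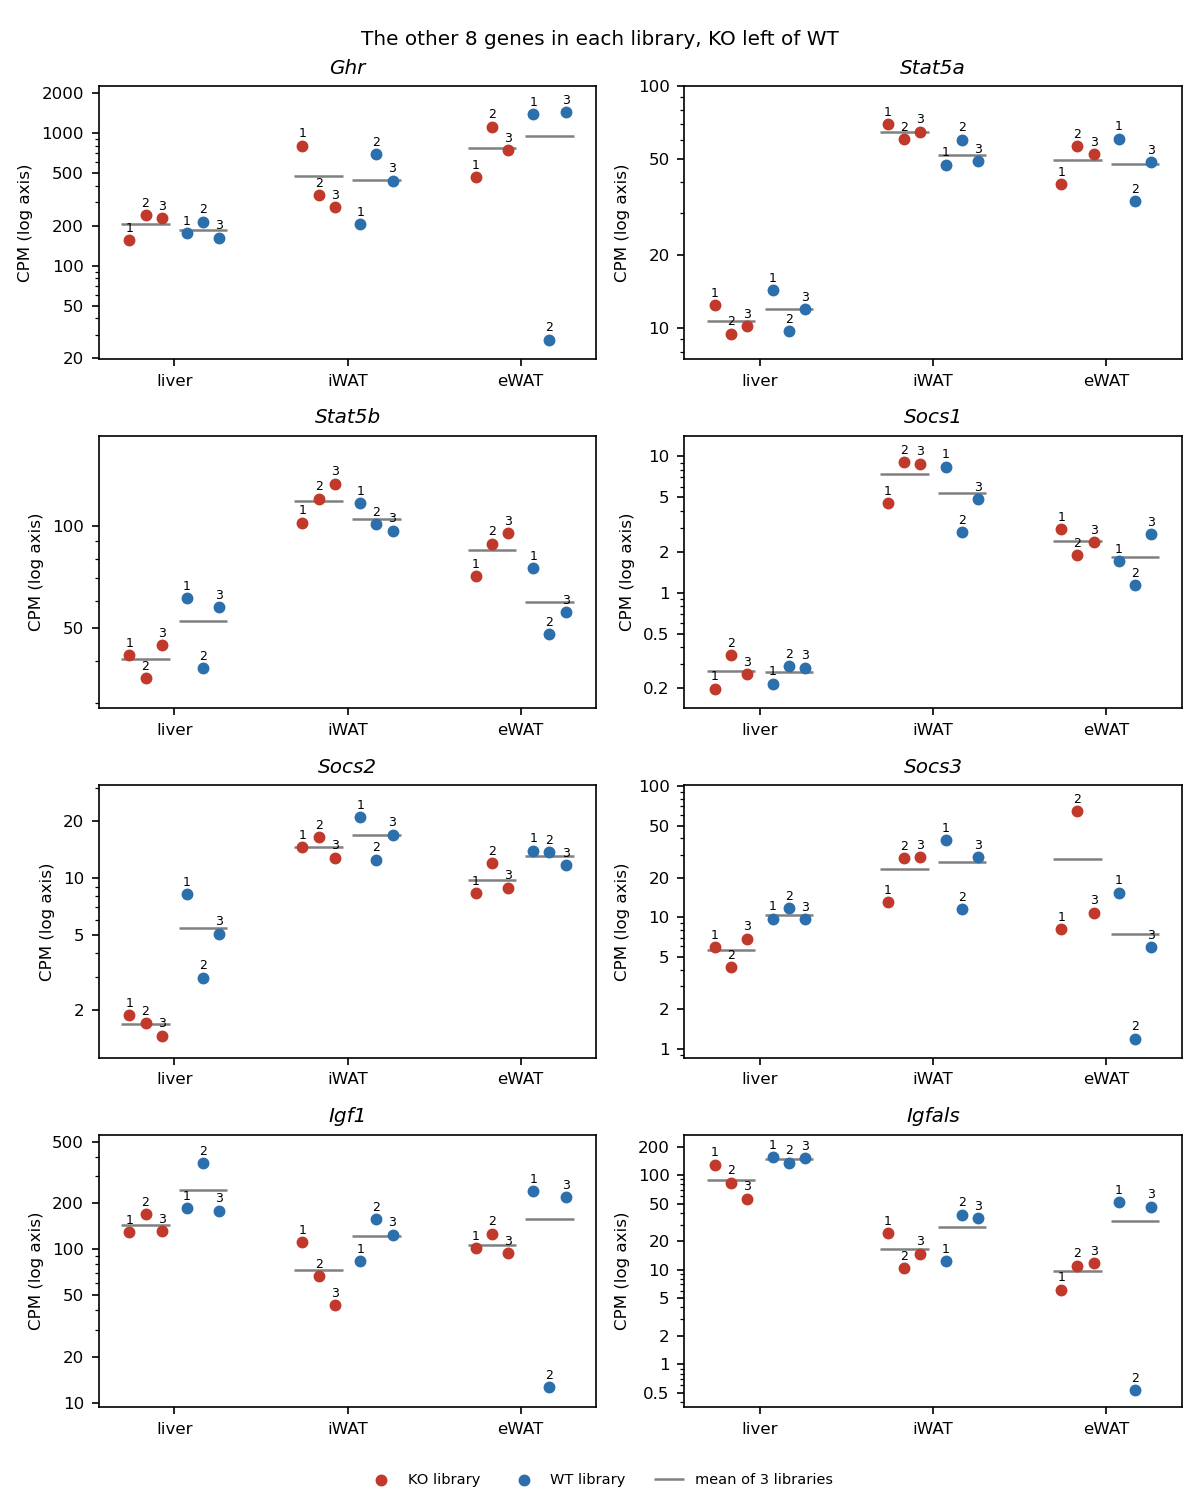
The 8 members other than Cish and Bcl6 in CPM on log axes, by tissue, with KO libraries (red) left of WT libraries (blue), replicate numbers above the points and a grey line at the mean of 3 libraries. WT eWAT replicate 2 lies far below the other eWAT libraries for Ghr, Igf1, Igfals and Socs3, and in liver Socs2, Socs3, Igf1 and Igfals have every KO point below every WT point.

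The fat depots were also fitted together, with depot and genotype as terms over 12 libraries, an addition made after the data had been seen. Whether both depots come from the same mice is not given. The fit took the 12 libraries as independent, so its p-values are too small if mice were shared. The log2 fold change of KO over WT was 1.90 ± 0.35 for Bcl6 (adjusted p = 0.218 in edgeR) and -2.30 ± 0.48 for Cish (adjusted p = 0.318), and their ranks by p were 11 and 25 among 15455 genes. No member and no gene (0%) passed in edgeR, 3 members and 1039 genes stood at an unadjusted p under 0.05, and DESeq2 called 109 genes (0.705%), both Cish and Bcl6 among them. Without WT iWAT replicate 1, Bcl6 passed in edgeR at 2.26 with an adjusted p of 0.0344. That library lay nearest to KO iWAT in Bcl6, and Bcl6 was chosen with these libraries known, so nothing is read from this pass. With limma-voom and the replicate number within genotype as a random block, 0 of 15455 genes passed. Fat libraries sharing genotype and number had a consensus correlation of -0.063 in that fit. The genotype effect in iWAT minus that in eWAT was -0.99 ± 0.62 for Bcl6 and -0.71 ± 0.92 for Cish, and no member or gene passed this test of the difference in edgeR (adjusted p = 0.969 and 0.978).

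The ratio of Bcl6 to Cish expected counts within a library does not depend on its scaling. Its log2 was 2.73, 3.24 and 3.08 in KO livers, against -2.38, -3.28 and -3.39 in WT livers. In iWAT it was 4.03, 3.37 and 3.31 in KO, against 1.33, -1.87 and -1.15 in WT. In eWAT it was 2.27, 4.24 and 2.55 in KO, against -1.56, 0.21 and -1.73 in WT. The lowest KO value of any tissue, 2.27, was above the highest WT value of any tissue, 1.33, and this includes WT eWAT replicate 2 at 0.21. The pair was chosen with these libraries known, so the separation is a description.

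**Figure D5:**
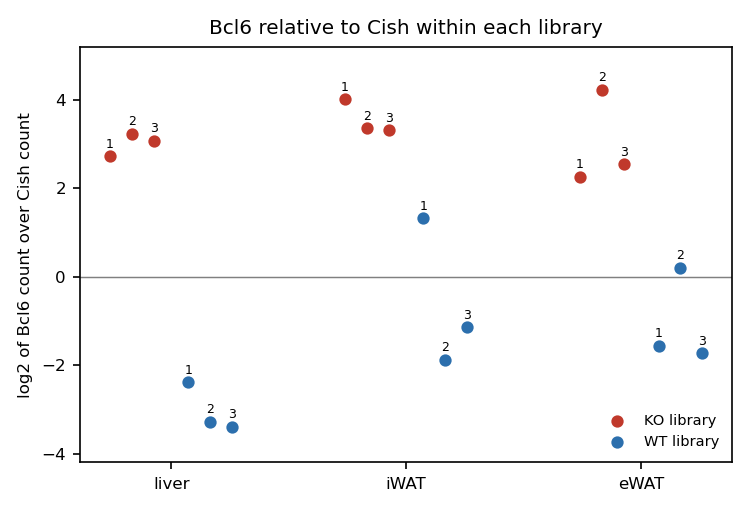
Log2 of the Bcl6 expected count over the Cish expected count in each of the 18 libraries, by tissue, with KO libraries (red) left of WT libraries (blue) and replicate numbers above the points. Every KO library lies at 2.27 or above and every WT library at 1.33 or below.

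Among the 11485 genes tested in all 3 tissues, 16 were higher in every KO library than in any WT library of the same tissue in all 3, Bcl6 among them, and 5 were lower in the same sense. Cish was not one of the 5, because WT eWAT replicate 2 overlapped. Bcl6 had a smallest log2 fold change over the 3 tissues of 1.41 and Cish one of 1.99 in size, and in each direction no other of these genes had a smallest change as large. Both genes were chosen with their liver differences known, and liver is 1 of the 3 tissues, so these places are a description.

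Levels between genes were compared as the authors' FPKM, which divides by gene length. In WT liver the outputs and the receptor stood highest, with a mean of 199 FPKM for Igf1, 87.9 FPKM for Ghr and 54.4 FPKM for Igfals. Stat5b (10.04 FPKM) and Cish (8.04 FPKM) followed and overlapped each other. Socs3 (3.89 FPKM), Stat5a (3.32 FPKM), Socs2 (2.46 FPKM) and Bcl6 (0.850 FPKM) each overlapped the next in this order, and Socs1 was lowest at 0.0900 FPKM, below all of them in every library. In KO liver Bcl6 had 8.97 ± 1.60 FPKM and Cish 1.39 ± 0.356 FPKM, against 0.850 ± 0.419 FPKM and 8.04 ± 1.99 FPKM in WT liver (SD, n = 3 each).

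In WT iWAT Ghr led at 157 FPKM, followed by Igf1 at 47.8 FPKM, with no overlap between them or with the next gene. By their means Stat5b (19.9 FPKM), Cish (16.1 FPKM), Stat5a (15.4 FPKM), Igfals (10.3 FPKM), Socs3 (10.2 FPKM), Bcl6 (9.84 FPKM) and Socs2 (7.13 FPKM) came next. The ranges of neighbours in this order overlapped except those of Stat5a and Igfals, and Cish (8.88 to 20.2 FPKM) and Bcl6 (4.45 to 18.1 FPKM) overlapped all the others of these 7. Socs1 was lowest at 1.89 FPKM, apart from the next. In WT eWAT Ghr (258 FPKM) and Igf1 (45.3 FPKM) again had the highest means and Socs1 (0.560 FPKM) the lowest. There, the ranges of neighbouring genes overlapped all along this order except between Stat5b (10.4 FPKM) and Socs2 (5.24 FPKM), since WT replicate 2 widened most of them.

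Between WT liver and WT iWAT, 5 of the 10 members passed edgeR's quasi-likelihood test, beside 62.1% of all genes tested, 27% higher and 35.1% lower in liver. Igfals (log2 fold change of liver over iWAT 3.74 ± 0.43, adjusted p = 3.66e-04) and Igf1 (2.36 ± 0.37, adjusted p = 0.0015) were higher in liver, each in 3 of 3 libraries. Socs1 (-2.98 ± 0.56, adjusted p = 0.00316), Bcl6 (-2.15 ± 0.55, adjusted p = 0.0117) and Stat5a (-0.75 ± 0.22, adjusted p = 0.0216) were lower in liver, also in 3 of 3 libraries. Socs1 had only 5, 5 and 6 expected counts in WT livers, against 160, 68 and 95 in WT iWAT. It passed the count filter of this comparison through its iWAT counts alone, so nothing is read from its test. Without WT liver replicate 3 only Socs1, Igf1 and Igfals passed. Between WT liver and WT eWAT, 1 member passed, beside 40.4% of all genes tested. It was Stat5b, higher in liver (1.201 ± 0.30, adjusted p = 0.0206), though its log2 difference was -0.066 on the authors' FPKM plus 1. This count rested on single libraries: it was 8 without WT eWAT replicate 2, beside 53.5% of genes, 2 without WT eWAT replicate 1, and 0 without WT eWAT replicate 3, WT liver replicate 1 or WT liver replicate 3.

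Other genes of the pathway were taken as lists by function and counted in liver, where the median log2 fold change of all genes tested was -0.0021 and 49.7% of them had a positive one. A gene is called at an adjusted p under 0.05 in edgeR's quasi-likelihood test, as were 0.0504% of all genes in liver. The kinases, adaptors and other STAT and SOCS genes of receptor signalling had 20 of 29 above 0, with a median of 0.09 and 0 called. Sh2b1, an adaptor of JAK2, had 30.3 ± 4.08 CPM in KO livers and 37.2 ± 2.80 CPM in WT livers (SD, n = 3 each). Among other cytokine receptors that use STAT5, 8 of 15 were above 0 and 0 were called. Prlr, the prolactin receptor gene, had 93.6 ± 15.1 CPM in KO livers and 152 ± 51.0 CPM in WT livers, with no overlap in CPM. On the authors' FPKM it overlapped, at 34.96 to 52.9 FPKM in KO livers and 30.25 to 98.4 FPKM in WT livers.

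Liver genes known to be induced by growth hormone or STAT5 were below 0 in 11 of 13, with a median of -0.41 and 0 called, and 4 were lower in every KO library than in any WT library, as were 6.97% of all genes. Pim1, a kinase gene, had 4.79 ± 1.54 CPM in KO livers and 9.43 ± 1.79 CPM in WT livers, and Egfr, the epidermal growth factor receptor gene, had 135 ± 26.5 CPM in KO livers and 213 ± 52.6 CPM in WT livers. Onecut1, a hepatocyte transcription factor gene, had 4.48 ± 1.47 CPM in KO livers and 12.7 ± 7.24 CPM in WT livers, with overlap. Genes known to be higher in female than in male mouse liver were below 0 in 11 of 17, with a median of -0.40, 0 called and 4 lower without overlap. Cyp2c69 had 0.741 ± 0.435 CPM in KO livers and 13.0 ± 13.0 CPM in WT livers, and Cyp2c40 had 3.89 ± 1.80 CPM in KO livers and 17.3 ± 9.01 CPM in WT livers; both belong to a family of near-identical genes whose reads can be split. Genes known to be higher in male liver were above 0 in 11 of 21, with a median of 0.11 and 0 called. Elovl3, a fatty acid elongase gene, had 28.0 ± 8.56 CPM in KO livers and 11.3 ± 4.01 CPM in WT livers.

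The IGF system beyond Igf1 and Igfals was split evenly, 6 of 12 above 0 with 0 called. Igfbp1, the insulin-repressed IGF binding protein gene, had 28.4 ± 6.43 CPM in KO livers and 15.8 ± 4.44 CPM in WT livers, with no overlap. BCL6 corepressors and relatives were above 0 in 8 of 12 with 0 called. The corepressor gene Bcor had 20.4 ± 4.64 CPM in KO livers and 12.5 ± 4.07 CPM in WT livers, and Hdac3, a deacetylase gene of the same list, had 22.03 ± 0.992 CPM in KO livers and 26.4 ± 2.14 CPM in WT livers, neither with overlap in CPM. On the authors' FPKM Hdac3 overlapped, with a KO maximum of 12.3 FPKM and a WT minimum of 11.98 FPKM. Acute-phase genes that IL-6 and STAT3 induce were below 0 in 15 of 16, with a median of -0.58, 0 called and 5 lower without overlap. Orm3 had 2.40 ± 0.114 CPM in KO livers and 10.7 ± 6.46 CPM in WT livers, and Apcs had 84.5 ± 16.5 CPM in KO livers and 236 ± 145 CPM in WT livers (SD, n = 3 each). Fasting and insulin responsive genes were above 0 in 10 of 14 with 0 called. Scd1, a desaturase gene of lipid synthesis, had 408 ± 183 CPM in KO livers and 1391 ± 845 CPM in WT livers, and the hormone gene Fgf21 had 2.996 ± 2.02 CPM in KO livers and 0.849 ± 0.429 CPM in WT livers.

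Clock and clock-output genes were above 0 in 11 of 16, and 1 was called, Rgs16, a regulator of G protein signalling that follows the feeding rhythm in liver. Rgs16 had 20.96, 16.7 and 10.4 CPM in KO livers, against 2.24, 3.43 and 3.05 CPM in WT livers (log2 fold change 2.47 ± 0.30, adjusted p = 0.0351 in edgeR). It did not pass with all 18 libraries, where Bcl6 alone did, or without KO liver replicate 1, where no gene did. Nor did it pass without WT liver replicate 1, where only Cish and Bcl6 did. It was the only called gene among these 10 lists in any tissue. In iWAT and eWAT 0 genes of any of them were called in edgeR. The lists were chosen with earlier results of these libraries known, and their counts are not independent support.

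Across the 18 libraries, each gene centred on its mean in each tissue, the log2 CPM of Cish and Bcl6 had a Pearson r of -0.75. This is a description over libraries that share tissue, genotype and depth differences, with no p, as are the values that follow. Of 10927 genes compared, those most like Cish were Arl15 (r = 0.85), Ifrd2 (0.83), Dnajc11 (0.82), Leo1 (0.81) and Rnf144b (0.81). Those most opposite were Dnajb1, Hspa1b and Hspa1a (each -0.86), Trmt1l (-0.84) and Banp (-0.84). Those most like Bcl6 were Xrcc2 (0.89), Banp (0.88), Rassf1 (0.86), Dtx3l (0.85) and Egr1 (0.84), and those most opposite were Arl15 (-0.90), Dvl1 (-0.85), Hdac3 (-0.80), Oxa1l (-0.80) and Phlda1 (-0.78). Arl15 was near the top for Cish and the most opposite for Bcl6. It had 4.85 CPM in KO livers against 8.13 CPM in WT livers, 20.4 CPM in KO iWAT against 32.6 CPM in WT iWAT, and 19.7 CPM in KO eWAT against 34.8 CPM in WT eWAT, with no overlap in any tissue. Within the set, Igf1 and Igfals (0.91) and Ghr and Igf1 (0.89) had the highest values, to which WT eWAT replicate 2 contributes by its low level of all 3.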

How the data were processed

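For each of the 18 libraries the authors deposited 2 tables per gene, one of expected counts and one of FPKM. The deposited expected counts need not be whole, and 8.57% of them were not. The deposited FPKM values were used for levels between genes and for alternatives. Per the labels' protocols, polyadenylated RNA was enriched and reverse transcribed with random primers. The submitters' processing notes name RSEM, HISAT2, Bowtie2 2.2.8, StringTie 1.3.1, fastp 0.18.0, edgeR, DESeq2 and the build mm10, without saying what each was used for. Symbols and coordinates are those of GENCODE M21 on that build, and 22255 of 22298 identifiers matched.

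Expected counts were rounded. The low-count filter was filterByExpr of edgeR with a minimum count of 10 and a minimum total of 15. Libraries were scaled by TMM, and genes were tested with glmQLFit and glmQLFTest (edgeR 4.0.16, R 4.3.3), two-sided, on the 6 libraries of each comparison, with Benjamini-Hochberg adjustment over all genes and a threshold of 0.05. The standard error of a log2 fold change was its size over the square root of F. Alternatives used DESeq2 1.42.0 and limma 3.58.1 (voom, or log2 of FPKM plus 1 or 0.1), other scalings, no filter, a replicate block, all 18 libraries, and each library left out. The steps were checked on simulated counts with known changes. Likeness was the Pearson r of log2 CPM with a prior count of 2, among genes with a mean of at least 1.

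The members and all lists were chosen with earlier results of these data known. The genes named are the members, up to 4 of each list in order of p (a few of those are printed), and the 5 genes most like and most opposite Cish and Bcl6.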

Additional observations from a re-analysis of the deposited data

Results flagged for a closer look

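For 2 genes of the lists, every KO library lay on one side of every WT library in liver and on the other side in iWAT. The difference between the tissues was not tested. Elovl3, listed among genes higher in male liver, differed by 1.32 between the KO and WT means on the log2 scale in liver and by -1.86 in iWAT. Elovl3 had 4.72, 3.34 and 3.86 CPM in KO iWAT, against 14.4, 4.76 and 24.1 CPM in WT iWAT, so WT replicate 2 nearly met KO. On the authors' FPKM these iWAT groups overlapped, with a KO maximum of 2.39 and a WT minimum of 2.28. Rgs16, listed among the clock outputs, differed by 2.46 in liver and by -0.59 in iWAT. Rgs16 had 5.95, 6.14 and 7.30 CPM in KO iWAT, against 7.49, 9.61 and 12.1 CPM in WT iWAT. These values are log2 ratios of group means in CPM, so they can differ in the last digit from the fitted fold changes.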

How the results depend on the processing

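Over every alternative run, the log2 fold changes of Cish and Bcl6 for KO against WT kept their sign in all of 134 recomputed values, in liver, iWAT, eWAT and both fat depots together. They ran from -2.80 to -1.91 for Cish and 2.44 to 3.72 for Bcl6 in liver, -2.97 to -2.08 and 1.09 to 2.10 in iWAT, and -2.45 to -1.14 and 2.11 to 2.72 in eWAT. Of the 367 values of the other members, 28 changed sign and none of these passed the threshold. With FPKM plus 1 (the same with a minimum mean FPKM of 1) and plus 0.1, Stat5a in liver was 0.12 and 0.16, Socs2 in iWAT 0.015 and 0.022, Socs3 in iWAT 0.0059 and 0.017, Ghr in eWAT 1.26 and 1.301, and Igf1 in eWAT 0.45 and 0.53. The median over all genes with FPKM was 0.08 to 0.12 in liver, 0.10 to 0.13 in iWAT and 0.28 to 0.37 in eWAT, against -0.0021, 0.012 and -0.022 with TMM-scaled counts. With limma-voom, Ghr and Igf1 in eWAT were 1.03 and 0.31. Leaving out 1 library at a time gave -0.50 to 0.55 for Ghr and -0.53 to 0.21 for Socs3 in iWAT, and -0.85 to 0.18 for Ghr and -0.12 to 0.26 for Stat5a in eWAT. The cause of these changes was not tested.

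In liver, where the members were chosen with the contrast known and the count supports nothing, 2 members (Cish and Bcl6) were past the threshold. It was 3 with DESeq2 (Socs2 in addition), 1 (Bcl6) with all 18 libraries, and 0 to 3 with a library left out, 0 without KO replicate 1 and 1 (Bcl6) without KO replicate 2. The count was 1 in place of 0 with DESeq2 in iWAT (Cish) and in eWAT (Bcl6), and 0 with any single library left out there. Members whose groups did not overlap in eWAT were 7 without WT replicate 2, chosen after seeing the data, in place of 1. In both fat depots together, an addition made after seeing the data with all its alternatives, it was 2 with DESeq2 in place of 0, and 0 to 1 with a library left out. Over all genes DESeq2 called 65 in liver in place of 6, 67 in iWAT, 126 in eWAT and 109 in both depots in place of 0, limma-voom 4 in liver, and the fit of all 18 libraries 1 in liver and 11 in eWAT. For WT liver against WT iWAT the members past the threshold were 8 with FPKM plus 1 and 9 with FPKM plus 0.1 in place of 5, and 3 to 5 with a library left out. For WT liver against WT eWAT, 1 became 3 with upper quartile scaling, 4 with DESeq2, 4 with FPKM plus 1, 3 with FPKM plus 0.1 and with a minimum mean FPKM, 5 with all 18 libraries and 0 to 8 with a library left out. Stat5b in that comparison was -0.066 with FPKM plus 1, with or without the minimum mean, and -0.074 with FPKM plus 0.1, in place of 1.201.

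Same-numbered KO and WT libraries did not deviate together (correlations of their deviations -0.74 to 0.17), so the numbers were not taken to pair them. With a replicate block, 3 members (Cish, Socs2 and Bcl6) and 39 genes passed in liver, and 0 in iWAT, eWAT and both depots. Under the block, Ghr and Igf1 in eWAT were 0.23 and 0.022.

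Limits are the 3 libraries per group, WT eWAT replicate 2, the B cell content of iWAT, and the 35 to 105 expected counts of Bcl6 in WT livers. A further limit is Socs1 in liver, whose KO against WT difference no fit with the count filter measured.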
